A study of Mus musculus with 2 samples.

Results

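The endothelial cell and pericyte genes are 36 genes whose transcripts mark the 2 cell layers of a small blood vessel: 28 genes of the endothelium that lines it and 8 genes of the mural cells, the pericytes and smooth muscle cells that wrap it. They were taken by gene symbol from all probe sets of the array with exactly 1 symbol in the platform annotation. That gave 60 of 45037 probe sets, for 35 of the 18193 genes named in this way; Ednra, an endothelin receptor, was the listed gene without such a probe set and is not analysed here. Each gene took the value of its probe set with the highest mean intensity of both arrays.

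Retina of a Sox11 knockout mouse embryo, with the genotype given as Sox11-/-, was compared with retina of a wild-type littermate. Both were of the C57BL/6 background at embryonic day 18, and 1 array was hybridised per genotype. Sox11 encodes a SoxC transcription factor of differentiating neurons. Which part of the gene was removed is not given in the labels. Neither genotype has a replicate, so no spread between animals, test or replicate check can be given, and the number of arrays limits the precision of every value below.

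Endothelial cells sense vascular endothelial growth factor through receptor tyrosine kinases, recruit mural cells by secreting platelet-derived growth factor, and are steered between sprouting and rest by angiopoietin and Notch signals. The mouse retina is still without blood vessels of its own before birth. The embryonic eye is supplied by the hyaloid vessels in the vitreous, which lie against the inner face of the retina, and by the choroid behind the pigment epithelium. Some of the listed genes are also transcribed by other cells, such as macrophages, mesenchyme and neural progenitors.

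Each ratio is the knockout value minus the wild-type value on the scale log2(intensity + 5), which understates the change of low values. The low-value filter asked for an intensity of 18.6 or more, the pooled median, on at least 1 of the arrays. Median intensities were 19.7 on the knockout array and 17.6 on the wild-type array, and both arrays had been scaled alike by the authors. The brightest Sox11 probe set read 252.4 in the knockout and 3205.7 in the wild type, while another of its 6 probe sets read 701.7 in the knockout and 328.8 in the wild type. Sex-linked transcripts differed as well: Xist read 922.7 in the knockout and 12.3 in the wild type, and Eif2s3y read 4.7 in the knockout and 214.0 in the wild type. Sex and genotype cannot be told apart here. Apln and Slc38a5 were the 2 measured vessel genes on the X chromosome.

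The vessel list was only partly measurable. Of its 35 genes, 17 passed the filter (48.6%), against 63.5% of all genes. The endothelial list had 12 of 28 past it and the mural list 5 of 7. The 18 that did not pass had intensities between 1.0 and 18.2 on both arrays, and they include several defining genes of endothelium: the adhesion molecule Pecam1, the receptors Tek, Tie1 and Flt1, and the transcription factors Erg, Sox17 and Sox18. No listed gene was at 0 on either array. Detection calls were not used here, so a value below 18.6 is a low reading and not proof of absence.

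**Figure D1:**
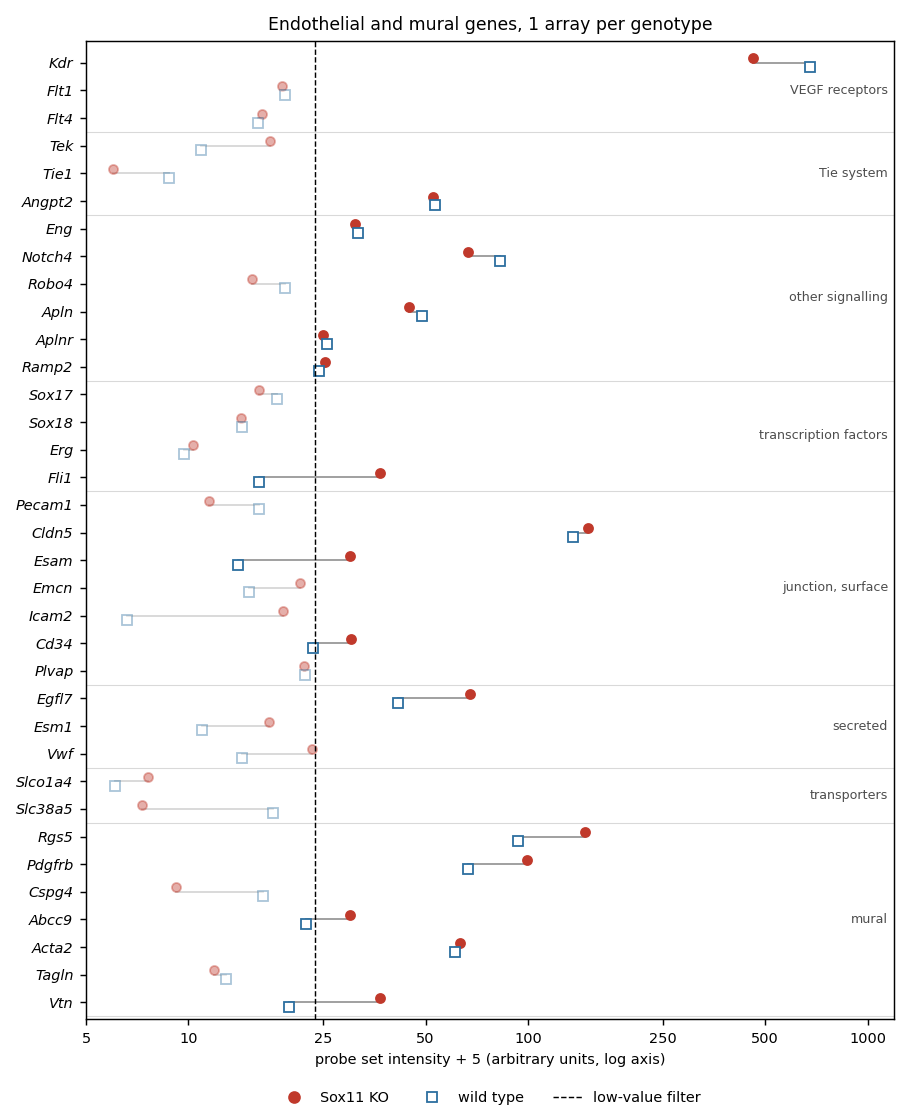
Intensity plus 5 of each measured vessel gene (log axis, arbitrary units) on the Sox11 knockout array (filled circles) and the wild-type array (open squares), 1 array each, grouped by role; pale symbols did not pass the filter, drawn as a dashed line. Kdr lies far to the right of the line with the knockout below the wild type, the mural genes Rgs5, Pdgfrb and Vtn have the knockout above the wild type, and 18 genes stay left of the line on both arrays. Positions of different genes cannot be compared, since each is read by its own probes.

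The endothelial genes showed no common shift, whereas Rgs5 and Pdgfrb among the mural genes were higher on the knockout array. Of the 12 endothelial genes past the filter, 6 were higher and 6 lower, and their median log2 ratio was 0.02, which turned to -0.097 after quantile normalization and -0.075 after loess. Over all 11553 genes past the filter, 47.7% were higher and 52.1% lower, with a median of -0.01. The 5 mural genes past it had positive ratios with a median of 0.58, but Vtn and Abcc9 reached 18.6 on the knockout array alone and so had to be higher. Of the 3 at or above 18.6 on both arrays, Rgs5 had 0.66, Pdgfrb 0.58 and Acta2 0.05, which turned slightly negative after quantile normalization and loess. The 2 mural genes below the filter, Cspg4 and Tagln, were lower on the probe sets used, but the second probe set of Cspg4 was higher. In RNA of a whole retina, more cells of a type and more RNA per cell cannot be told apart.

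A difference of at least 2-fold was found for 2 vessel genes, Fli1 and Esam, both higher, and for none in the other direction; with the pseudocount at 18.6 in place of 5, the count was 0. Over all genes past the filter, 0.961% reached 2-fold in the higher and 0.407% in the lower direction. At 1.5-fold, 5 vessel genes were higher (Fli1, Esam, Egfl7, Rgs5 and Vtn) and 0 lower, beside 3.81% of all genes higher and 2.17% lower. Of these 5 genes, Fli1, Esam and Vtn reached 18.6 on the knockout array alone, as did Cd34 and Abcc9, so they had to be higher. The same held for 2.92% of all genes past the filter, while 2.06% reached it on the wild-type array alone, as no vessel gene did. Among the 12 vessel genes at or above 18.6 on both arrays, 2 were at least 1.5-fold higher (Egfl7 and Rgs5) and 0 lower, against 2.47% and 1.47% of all such genes. At 2-fold, 0 of the 12 were higher and 0 lower, against 0.383% and 0.128%. Without any filter, 19 of the 35 genes were higher, beside 47.4% of all 18193 genes. Of these 35, 3 were at least 2-fold higher, with Icam2 beside Fli1 and Esam, and 1 lower, Slc38a5, beside 1.56% and 1.33% of all genes, and 9 were at least 1.5-fold higher and 2 lower, beside 6.48% and 5.95%. Icam2 and Slc38a5 read below 18.6 on both arrays.

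Kdr was the only measurable receptor of vascular endothelial growth factor, and it was lower in the knockout. It encodes the main signalling receptor of that factor on endothelium, and in the embryonic mouse retina it is also transcribed by neural progenitors. Its probe set read 456.1 in the knockout and 673.2 in the wild type, a log2 ratio of -0.56, so the knockout had 67.8% of the wild-type intensity. The ratio lay outside the central 95% of all genes in its level band, which ran from -0.37 to 0.35; the bands are 4 equal groups of genes past the filter, ordered by mean level. Only 1 probe set with a single symbol measured Kdr, so no second reading is at hand.

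The other receptors of the family stayed below the filter on both arrays. Flt1, which binds the factor but signals weakly, read 13.9 in the knockout and 14.3 in the wild type. Flt4, the receptor of lymphatic and sprouting endothelium, read 11.5 in the knockout and 11 in the wild type. Both pairs of readings, each from the probe set used for the gene, were nearly equal. The other Flt1 probe sets gave -0.73, 0.23 and 0.08, and the second of Flt4 gave -0.47, all below the filter. The summed intensity of all 28 endothelial genes was 1125.2 in the knockout and 1261.5 in the wild type. Without Kdr the order turned, at 669.1 in the knockout and 588.3 in the wild type.

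Promoter sequence is shown for Kdr and for Rgs5, the 2 vessel genes that were at or above 18.6 on both arrays and lay outside the range of their level bands, in opposite directions. Each runs from 250 bases before to 50 bases after the start of the gene in the RefSeq annotation of build GRCm38.p6, which holds such a window for 23 of the 36 listed genes. Capitals mark the letters GGAA, the core that ETS factors such as Erg and Fli1 bind, and ACAAT, a core of sites bound by Sox factors, on either strand; the motifs do not overlap in these windows. The Kdr window is chr5:75978406-75978705 on the minus strand and the Rgs5 window is chr1:169655251-169655550 on the plus strand.
Kdr: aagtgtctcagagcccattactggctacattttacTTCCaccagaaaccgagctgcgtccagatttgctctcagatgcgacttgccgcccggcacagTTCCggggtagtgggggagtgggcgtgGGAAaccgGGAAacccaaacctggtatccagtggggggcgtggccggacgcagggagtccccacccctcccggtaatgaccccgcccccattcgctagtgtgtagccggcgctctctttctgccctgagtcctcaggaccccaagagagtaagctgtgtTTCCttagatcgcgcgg
Rgs5: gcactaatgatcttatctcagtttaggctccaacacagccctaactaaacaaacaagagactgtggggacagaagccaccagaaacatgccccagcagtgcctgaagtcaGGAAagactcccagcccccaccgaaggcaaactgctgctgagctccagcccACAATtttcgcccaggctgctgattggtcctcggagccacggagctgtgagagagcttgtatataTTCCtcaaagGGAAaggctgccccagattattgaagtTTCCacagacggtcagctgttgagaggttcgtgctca
The Kdr window held GGAA 5 times and ACAAT 0 times, and the Rgs5 window held GGAA 4 times and ACAAT once, 89 bases before the start. GGAA occurred in 96.0% of all 32851 promoter windows and ACAAT in 31.0%, against 96.3% and 33.3% of the 27 windows of vessel genes. A match of letters is a description of the sequence and shows no binding.

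The Tie receptors and their ligand gave no difference that could be read above the low-value filter. Angpt2, the ligand that loosens vessels during remodelling, read 47.6 in the knockout and 48.4 in the wild type. Tek, the angiopoietin receptor, read 12.4 in the knockout and 5.9 in the wild type, and its partner Tie1 read 1.0 in the knockout and 3.8 in the wild type. The receptor pair was thus below 18.6 on both arrays, with opposite signs.

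Of the other signalling genes, 5 of 6 passed the filter, and all 5 did so on both arrays. Notch4, the Notch receptor of endothelium, was the furthest apart, at 61.7 in the knockout and 77.5 in the wild type, a log2 ratio of -0.31; its other 2 probe sets were below the filter and gave -0.37 and 0.37. Apln, the apelin peptide of sprouting tip cells, read 39.6 in the knockout and 43.9 in the wild type. Its receptor Aplnr read 20.0 in the knockout and 20.6 in the wild type. The TGF-beta co-receptor Eng read 26.0 in the knockout and 26.7 in the wild type, and Ramp2, which makes the calcitonin-like receptor respond to adrenomedullin, read 20.3 in the knockout and 19.2 in the wild type. Except for Notch4, these ratios lay between -0.13 and 0.06. Robo4, a guidance receptor that stabilises vessels, was below the filter, at 10.4 in the knockout and 14.3 in the wild type.

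Among the transcription factors only Fli1 was measurable. Fli1 is an ETS factor of endothelium and of blood cells. It read 31.8 in the knockout and 11.2 in the wild type, a log2 ratio of 1.18 and at least 1.71-fold higher when the wild type is set to the filter value. Its second probe set gave 0.21 and lay below the filter. The endothelial ETS factor Erg read 5.3 in the knockout and 4.7 in the wild type. The SoxF factors Sox17 and Sox18, which drive arterial and vascular fate, read 11.2 and 9.3 in the knockout, against 13.3 and 9.4 in the wild type. These 3 factors were low on both arrays and close between them.

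Of the 7 junction and surface proteins, 1 was readable on both arrays, and Esam and Cd34 reached the filter on the knockout array alone and so had to be higher. Cldn5, the tight junction protein of the blood-retina barrier, was nearly level, at 145.2 in the knockout and 131.2 in the wild type, a log2 ratio of 0.14. Esam, an adhesion molecule of endothelium and platelets, read 25 in the knockout and 9.0 in the wild type, a log2 ratio of 1.10 and at least 1.34-fold higher. Cd34, a sialomucin of endothelium and progenitor cells, read 25.1 in the knockout and 18.3 in the wild type, at least 1.35-fold higher. The remaining 4 were below the filter on both arrays and did not share a sign. Icam2, an adhesion molecule for leukocytes, read 14.0 in the knockout and 1.6 in the wild type. The sialomucin Emcn read 16.3 in the knockout and 10.1 in the wild type, Pecam1 read 6.5 in the knockout and 11.2 in the wild type, and Plvap, which forms the diaphragms of fenestrated vessels such as the choriocapillaris, read 16.9 in the knockout and 17.0 in the wild type.

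Among secreted proteins, Egfl7 was higher, but its probe sets did not share a sign. Egfl7 is a matrix protein that endothelium lays down during sprouting. Its main probe set read 62.7 in the knockout and 36.4 in the wild type, a log2 ratio of 0.71, and the 3 others gave 0.20, -0.30 and 1.04. That spread of more than 1 log2 unit within the gene is wider than the ratio itself; the SD between probe sets of 1 gene, pooled over the 5612 genes with several past the filter, was 0.26. Esm1, a proteoglycan of tip cells, read 12.3 in the knockout and 6.0 in the wild type. Vwf, the clotting factor carrier, read 18.2 in the knockout, just under the filter, and 9.4 in the wild type.

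The transporters of mature barrier endothelium were not measurable above the filter. Slco1a4, an organic anion transporter, read 2.6 in the knockout and 1.1 in the wild type. Slc38a5, an amino acid transporter whose transcript depends on Norrin signalling in mouse retinal vessels, read 2.3 in the knockout and 12.8 in the wild type. With all 4 readings below 18.6, no fold is given here, and the 2-fold count of Slc38a5 without a filter rests on such low readings.

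**Figure D2:**
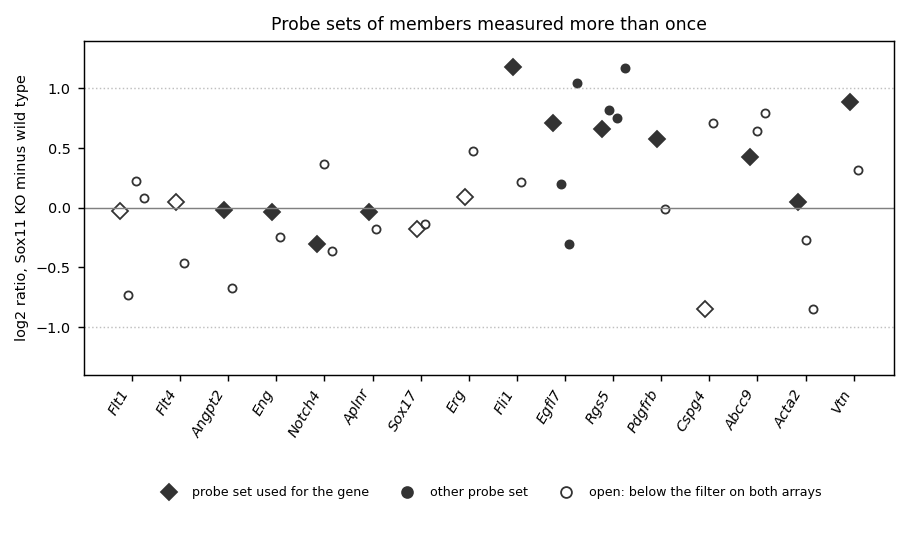
Log2 ratio, Sox11 knockout minus wild type, of every probe set of the 16 vessel genes measured by more than 1 probe set; diamonds are the probe sets used for the gene, circles the others, and open symbols were below the filter on both arrays. All 4 Rgs5 probe sets are above 0, whereas those of Egfl7 lie on both sides of it.

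Of the mural genes, Rgs5 was higher on every probe set that measured it. Rgs5, a regulator of G protein signalling and a standard pericyte marker, read 142.0 in the knockout and 88.2 in the wild type, a log2 ratio of 0.66. Its other 3 probe sets gave 0.82, 0.75 and 1.17, and all 4 passed the filter. The range of all genes in its level band was -0.50 to 0.59. Of the 16 vessel genes with several probe sets, 9 had them all on the same side and 7 did not. That count includes probe sets below the filter on both arrays, and the same share over all genes was not computed.

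Pdgfrb and Vtn were higher as well, each on its brighter probe set. Pdgfrb, the receptor through which pericytes are recruited, read 94.5 in the knockout and 61.7 in the wild type, a log2 ratio of 0.58, and its second probe set, below the filter, gave -0.01. Vtn, the matrix protein vitronectin, read 31.7 in the knockout and 14.8 in the wild type, a log2 ratio of 0.89 and at least 1.70-fold higher. Abcc9, a subunit of the potassium channel of pericytes, read 24.9 in the knockout and 17.2 in the wild type, at least 1.34-fold higher. It reached the filter on the knockout array alone and so had to be higher. All 3 of its probe sets were positive, but those not used for the gene were below the filter on both arrays.

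The contractile genes of smooth muscle did not follow. Acta2, smooth muscle actin, read 58.0 in the knockout and 56.0 in the wild type, on a probe set whose suffix marks probes shared between transcripts, so related actins may add to it. The probe sets used for Pdgfrb, Vtn, Abcc9 and Egfl7 also carry a shared suffix (s or a), and that of Rgs5 does not. Tagln, an actin-binding protein of smooth muscle, read 6.9 in the knockout and 7.9 in the wild type. Cspg4, the proteoglycan NG2 of pericytes and oligodendrocyte precursors, read 4.2 in the knockout and 11.6 in the wild type, a log2 ratio of -0.85. Its second probe set, also below the filter, gave 0.71, so Cspg4 has no clear direction. The summed intensity of the 7 mural genes was 362.2 in the knockout and 257.4 in the wild type.

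**Figure D3:**
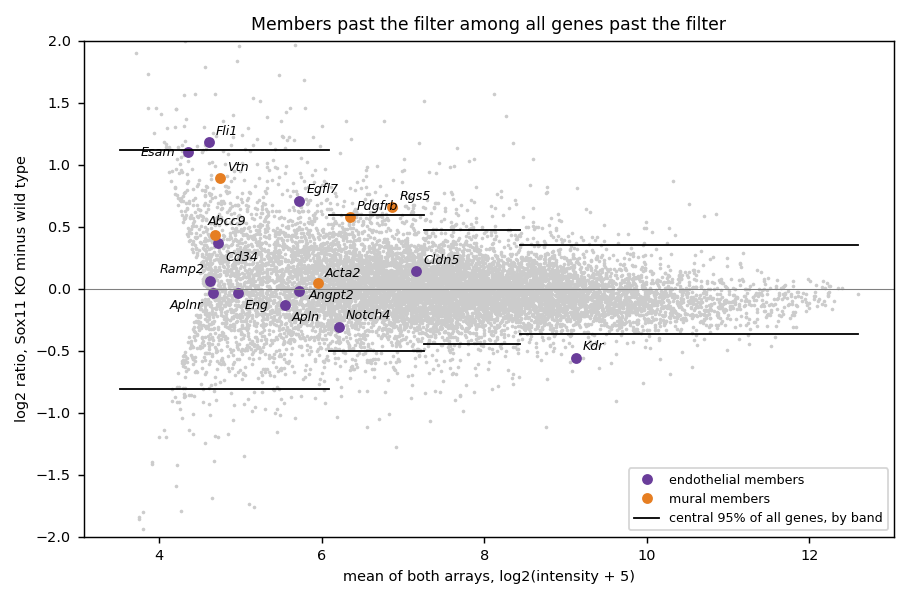
Log2 ratio, Sox11 knockout minus wild type, against the mean log2(intensity + 5) of both arrays for all 11553 genes past the filter (grey) and the 17 vessel genes past it (coloured); black lines bound the central 95% of all genes in 4 equal bands of level, and 20 genes lie beyond the axis limits. Kdr lies below the lines of its band, Rgs5 and Fli1 above theirs, and the other 14 vessel genes between theirs.

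Markers of macrophages and of pigment epithelium were also higher on the knockout array. All 11 macrophage and microglia genes past the filter (of 13 measured) had positive ratios, beside 47.7% of all genes past it. Of the 11, 3 reached it on the knockout array alone and so had to be higher. The 8 that reached it on both arrays had a median of 1.09. The list had summed intensities of 832.2 in the knockout and 388.6 in the wild type. Mesenchyme genes did not share a sign where both arrays could be read. Of the 8 past the filter (of 10 measured), 5 reached it on the knockout array alone and so had to be higher. The 3 others, Col1a2 at 1.72, Fbln1 at -0.26 and Pdgfra at -1.01, had a median of -0.26. Over all 8 the median was 1.91, or 1.10 with the dimmer array set to 18.6. The 10 genes had sums of 824.5 in the knockout and 416.8 in the wild type. The collagen Col3a1 read 253.2 in the knockout and 13.3 in the wild type, at least 13.6-fold higher. Pdgfra, which is in the astrocyte list too, read 74.9 in the knockout and 156.2 in the wild type. None of these markers was at 0 on either array. The part of these cells in the values of Fli1, Esam, Cd34, Pdgfrb and Vtn was not tested.

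Blood cells gave little signal. Each count by direction in this paragraph stands beside 47.7% of all genes past the filter higher and 52.1% lower. Of 5 measured erythroid genes none passed the filter, with sums of 29.5 in the knockout and 16.3 in the wild type. Of 4 platelet genes 2 passed, both higher, but Itga2b reached the filter on the knockout array alone and so had to be higher. Platelet sums were 154.8 in the knockout and 87.5 in the wild type. Pf4, a chemokine of platelets and of some macrophages, read 118.3 in the knockout and 62.3 in the wild type. Of the 6 pigment epithelium genes past the filter, 3 reached it on the knockout array alone and so had to be higher. The 3 others were higher too, with a median of 0.60, and over all 6 the median was 0.85, or 0.30 with the dimmer array set to 18.6. The list had sums of 394.9 in the knockout and 233.1 in the wild type. Lens genes had sums of 259.0 in the knockout and 169.6 in the wild type over 5 genes, with 2 of 4 past the filter higher and a median of 0.84. Of the 4, Crygd had to be higher and Lim2 lower, since each reached the filter on 1 array only. The others, read above it on both arrays, were Crygf at 1.97 and Cryaa at -0.52. Astrocytes, along which retinal vessels later spread, had 1 of 4 genes higher, a median of -0.28 and sums of 522.9 in the knockout and 657.4 in the wild type. Of these 4, Aldh1l1 had to be higher and Gfap lower, since each reached the filter on 1 array only. Slc1a3 and Pdgfra, read above it on both arrays, had a median of -0.60. The 4 neural retina genes did not share a direction: the rod factor Nrl had a log2 ratio of -1.12 and the ganglion cell factor Atoh7 0.87, while Rax and Elavl3 had 0.04 and 0.12.

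When the 11 vessel genes listed as also expressed by other cells were left out, 9 of the 17, Esam among them, remained, and the endothelial median was 0.06 over 7 genes and the mural median 0.54 over Rgs5 and Abcc9. Among those 9, Esam was at least 2-fold higher, beside 0.961% of all genes past the filter. Esam reached the filter on the knockout array alone, so it had to be higher, and it is known from platelets too. At 1.5-fold, Rgs5 and Egfl7 were higher as well, beside 3.81% of all genes, but the probe sets of Egfl7 did not share a sign.

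Further genes of the vessel pathways, in 11 lists, had no common direction. Of 89 measured, 62 passed the filter, 31 higher and 31 lower, with a median of -0.0028. Of the 62, 5 reached it on the knockout array alone and had to be higher, and 4 on the wild-type array alone and had to be lower. At 2-fold, 2 were higher and 1 lower, beside 0.961% and 0.407% of all genes. At 1.5-fold, 7 were higher and 3 lower, beside 3.81% and 2.17%. The ligand Vegfa, made by retinal neurons and glia, read 220.4 in the knockout and 284.2 in the wild type, a log2 ratio of -0.36, and its other probe set gave 0.07. The co-receptor Nrp1, which is also a semaphorin receptor on axons, read 226.7 in the knockout and 159.4 in the wild type, and all 4 of its probe sets were between 0.45 and 0.56. Of 6 genes of the VEGF ligand and co-receptor list past the filter, 3 were higher and 3 lower.

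In the hypoxia list, 4 genes of 5 had negative ratios, beside 52.1% of all genes past the filter. Of the 4, Adm reached the filter on the wild-type array alone and so had to be lower, and Hif1a and Bnip3 were near 0, at -0.08 and -0.12. Epas1, an oxygen-regulated transcription factor that endothelium transcribes strongly, read 140.9 in the knockout and 267.3 in the wild type, a log2 ratio of -0.90, with -0.93 on its second probe set. Egln3, a prolyl hydroxylase induced by hypoxia, went the other way, at 135.8 in the knockout and 98.6 in the wild type. In the sphingosine list, 3 of 4 genes were lower, beside the same 52.1% of all genes. The exception, the endothelial receptor S1pr1, read 54.5 in the knockout and 36.7 in the wild type.

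Notch genes were lower in 6 of 8, beside 52.1% of all genes past the filter, with a median of -0.14. Hey2, a Notch target of arteries, read 51.2 in the knockout and 73.6 in the wild type, a log2 ratio of -0.48, and the ligand Dll4 of tip cells read 78.8 in the knockout and 92.0 in the wild type. The ligand Jag1 was higher, at 82.1 in the knockout and 49.1 in the wild type, with all 3 probe sets positive. Norrin and Wnt genes, which drive retinal vessel growth in the mouse, were higher in 6 of 8, beside 47.7% of all genes. The amounts were small, with a median of 0.08. Fzd4, the Norrin receptor, had 0.35 and Lrp5, its co-receptor, 0.40. Norrin itself, Ndp, read 38.4 in the knockout and 36.8 in the wild type.

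The angiopoietin list had 2 of 5 genes past the filter, 1 in each direction, and the PDGF list 2 of 4, also 1 in each direction. The higher angiopoietin gene, Angptl4, reached the filter on the knockout array alone and so had to be higher. Pdgfb, the endothelial ligand of Pdgfrb, was below the filter, at 9.9 in the knockout and 11.6 in the wild type. In the ALK1 and BMP list, 3 of 4 genes past the filter were higher, beside 47.7% of all genes. Smad6, an inhibitory SMAD, led them, at 112.3 in the knockout and 84.7 in the wild type.

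Among 19 further endothelial genes, 10 passed the filter, 6 higher and 4 lower, beside 47.7% and 52.1% of all genes. Of the 10, 3 reached it on the knockout array alone and had to be higher. Another 2 reached it on the wild-type array alone and had to be lower. Lyve1, a receptor of lymphatic endothelium and of some macrophages, read 48.5 in the knockout and 18.9 in the wild type, a log2 ratio of 1.16. Tm4sf1, a surface protein of endothelium, read 25.5 in the knockout and 6.2 in the wild type, at least 1.37-fold higher, although its 3 probe sets gave ratios from -0.16 to 1.45. Cdh5, the endothelial cadherin, was below the filter, at 15.4 in the knockout and 9.3 in the wild type. Barrier and transport genes were split 4 to 3. Slc7a5, an amino acid transporter, read 270.0 in the knockout and 171.7 in the wild type. Lsr, a tricellular junction protein, read 12.0 in the knockout and 33.8 in the wild type, at least 1.82-fold lower. Lsr reached the filter on the wild-type array alone and so had to be lower. Of the 14 further mural genes, 6 passed the filter, 3 higher and 3 lower, with ratios from -0.26 to 0.26. The highest of these ratios was of Foxc1, which reached the filter on the knockout array alone and so had to be higher. The pericyte channel subunit Kcnj8 read 8.0 in the knockout and 9.0 in the wild type. The median of 0.01 over these 6 genes stands beside 0.58 over the 5 listed mural genes.

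**Figure D4:**
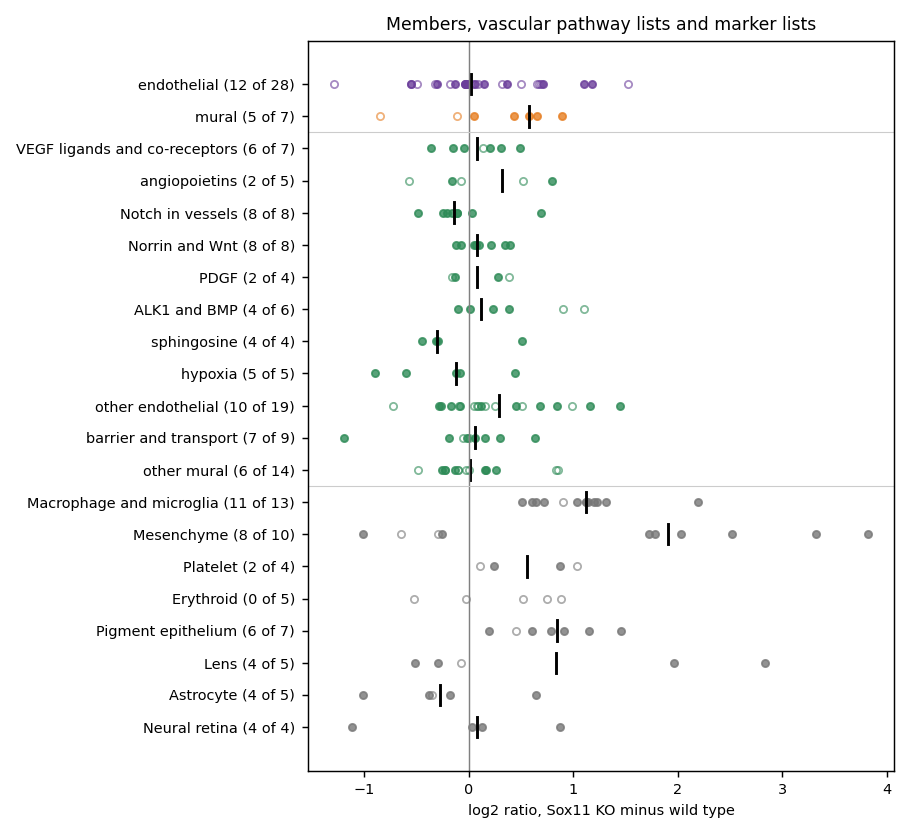
Log2 ratio, Sox11 knockout minus wild type, of each gene of the endothelial and mural lists (top), the 11 vessel pathway lists (middle) and the 8 marker lists of other cells (bottom); filled points passed the filter, open points did not, bars are medians of the filled points, and brackets give genes past the filter of genes measured. The endothelial bar is at 0.02 and the mural bar at 0.58, and the macrophage bar lies further right, at 1.12. The mesenchyme bar, at 1.91, is placed by 5 of 8 genes that passed the filter on the knockout array alone.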

How the data were processed

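Each genotype, Sox11 knockout and wild type, gave the RNA for 1 Affymetrix array. Per the labels' protocols, RNA was column-purified, reverse transcribed from an oligo-dT primer, amplified and turned into biotin-labelled cRNA. The authors deposited 1 linear intensity per probe set and array. Their software is not given in the sources used here, and the scaling was read from the values: both arrays had a mean of 100 once 2% of the probe sets at either end were trimmed.

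The 64 control probe sets were left out. Intensities were turned to log2(intensity + 5), with 5 the pooled 25th percentile, and no normalization was added. GEO's platform annotation named 34945 probe sets with 1 symbol and 932 with several, and left 9160 unnamed; 34741 matched the gene table of assembly GRCm38.p6 by Entrez number, and 0 symbols changed. Genes past the filter of 18.6 were counted; bounds set the dimmer array to 18.6. With 1 array per genotype there was no test. Every listed gene is described or counted by role, and up to 4 genes with the largest ratios were eligible for naming in each further list. Other genes named beside them (Ndp, Cdh5, Pdgfb, Kcnj8, Hif1a, Pdgfra, Col1a2, Fbln1, Xist and Eif2s3y) were chosen after their values were seen. Members, lists and alternatives were chosen with earlier results of these data known. The steps were tested on simulated data. Python 3.11.15, pandas 2.3.3 and statsmodels 0.14.6 (loess) were used. Alternatives were other scalings, pseudocounts, filters, probe set choices and gene subsets.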

Additional observations from a re-analysis of the deposited data

How the results depend on the processing

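The endothelial median log2 ratio of 0.02 had no stable sign: it was -0.0090 with the median log2 ratio of probe sets past the filter set to 0, -0.097 after quantile normalization, -0.075 after loess, -0.21 with the filter at 109.4 (2 genes left), -0.022 when the mean of both arrays had to reach 18.6, and -0.032 when both arrays had to. In the other settings run it lay between 0.01 and 0.06. The mural median stayed positive in every setting run, between 0.43 and 0.66, but rested on 1 gene, Rgs5, with the filter at 109.4 or without probe sets of shared suffix (s, x or a). The count of vessel genes at least 2-fold higher, 2 of 17, was 0 with the pseudocount at 18.6, with the filter at 109.4 and when both arrays had to reach 18.6, 1 with the filter on the mean or without genes that other cells also express, and 3 with no pseudocount or with no filter. The count at least 2-fold lower, 0, was 1 without a filter (Slc38a5). The count at least 1.5-fold higher, 5, was 9 without a filter, 6 with no pseudocount, 3 without shared probe sets or without genes that other cells also express, 2 when both arrays had to pass, and 1 with the filter at 109.4. The count at least 1.5-fold lower, 0, was 1 with the median set to 0 (Kdr) and 2 without a filter. The cause of these changes was not tested beyond the genes that each setting adds or drops. Of 160 values of single genes under the alternatives, 156 kept their sign, and the 4 others were of Acta2 and Ramp2, both near 0. Kdr ranged from -0.59 to -0.52 and Rgs5 from 0.59 to 0.78. Leaving out X-linked genes, Kdr, or requiring both arrays to pass were chosen after seeing the data. No paired analysis was possible because there is 1 array per genotype. Low signal limits most of the list, since 18 of 35 genes did not reach the filter.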
